A study of Mus musculus with 6 samples.

Results

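A set of 36 lysosomal genes was followed in mouse liver RNA: cathepsins, glycosidases, lipid hydrolases, acid phosphatases, membrane proteins and channels, the cholesterol exporters Npc1 and Npc2, and the transcription factor gene Tfeb. The genes were taken by symbol, and all 36 were found among the 28601 genes of the deposited table. All 36 also passed the filter on low counts that left 18648 genes for testing, and the lowest count of any of them in any library was 193. The livers came from 6 male mice fed CDAHFD, a high-fat diet of defined L-amino acids, deficient in choline, that causes steatohepatitis and fibrosis. The groups were 3 wild-type (WT) mice and 3 with PRDX1 Cys52Ser, a substitution of the cysteine through which peroxiredoxin 1 reduces peroxide. Feeding started in mice aged 8 weeks and went on for 8 weeks, by the titles and the design text. The treatment field instead runs from 8 to 10 weeks over the WT samples and from 11 to 13 weeks over the Cys52Ser samples, and if that field were literal, genotype and time on diet could not be told apart. Strain and zygosity are not given in the sources used here, and no liver on a normal diet was analysed here.

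Lysosomes are acidic organelles in which hydrolases break down proteins, glycans, lipids and nucleic acids delivered by endocytosis, phagocytosis and autophagy. A vacuolar proton pump acidifies them, heavily glycosylated membrane proteins such as LAMP1 and LAMP2 line them, and NPC1 and NPC2 pass cholesterol out of them. In liver, hepatocytes and macrophages both rely on them. TFEB and its relatives TFE3 and MITF switch on many lysosomal genes together by binding the E-box CACGTG within a longer element known as CLEAR.

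Total counts per library ranged from 53318196 to 73900923. Albumin took 3.6% to 5.55% of the counts in WT and 8.08% to 8.49% in Cys52Ser, and the TMM factors that adjust for shifts in composition ran from 1.05 to 1.21 in WT and from 0.814 to 0.963 in Cys52Ser. Levels are given as CPM, counts scaled to library size after that adjustment, unless FPKM is named, and every log2 fold change is Cys52Ser minus WT. Over all genes tested the median log2 fold change was 0.00 with these factors and -0.35 without them, when libraries were scaled by their totals. A substitution of 1 residue cannot be seen in gene-level counts, so the genotype labels could not be checked on these values. WT replicate 1 stood apart from the other WT livers in several sums of cell type markers, and Cys52Ser replicate 2 from the other Cys52Ser livers in some single markers. Both are given with those markers.

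RefSeq promoter sequences (GRCm38.p6), from 250 bases before to 50 bases after the start site, were found for 30 of the 36 genes, all but Ctsb, Npc1, Asah1, Ctsh, Atp6v0d2 and Galns. CACGTG, which reads the same on both strands, stood in the promoters of 8 of the 30 genes (26.7%) and of 8.09% of the 27025 genes in the promoter table. TCACGTGA, which contains it, stood in 4 of 30 (13.3%) and in 1.12% of all genes, and the 10-base CLEAR palindrome, that run with 1 more base at each end, in 1 of 30 (3.33%) and in 0.37% of all genes. Among 88 genes of the other lysosomal lists given below, the shares were close to those of the 30. They were 26.1% for CACGTG, 10.2% for TCACGTGA and 1.14% for the palindrome. The 8 genes with CACGTG were Cln3, Ctsa, Ctsd, Ctsl, Gaa, Glb1, Lamp1 and Mcoln1. Stretches of 100 bases are shown for 5 of them, to show how the E-box lies in these promoters. Those of Ctsk and Ctss are shown beside them because these are the genes with a promoter sequence whose log2 fold changes lay farthest below zero, and neither holds CACGTG in the window. Capitals mark CACGTG, and each sequence reads 5′ to 3′ on the strand of its gene.
Ctsd, chr7:142387873-142387972, minus strand: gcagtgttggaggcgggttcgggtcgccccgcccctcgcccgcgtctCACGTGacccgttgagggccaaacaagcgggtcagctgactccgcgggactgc
Cln3, chr7:126583305-126583404, minus strand: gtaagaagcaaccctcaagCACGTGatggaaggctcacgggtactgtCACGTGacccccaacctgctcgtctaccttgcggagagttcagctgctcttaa
Ctsa, chr2:164833673-164833772, plus strand: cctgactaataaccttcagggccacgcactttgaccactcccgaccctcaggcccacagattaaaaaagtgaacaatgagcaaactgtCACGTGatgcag
Lamp1, chr8:13159061-13159160, plus strand: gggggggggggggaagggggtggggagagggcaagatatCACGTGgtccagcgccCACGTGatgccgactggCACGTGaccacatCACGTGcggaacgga
Mcoln1, chr8:3500419-3500518, plus strand: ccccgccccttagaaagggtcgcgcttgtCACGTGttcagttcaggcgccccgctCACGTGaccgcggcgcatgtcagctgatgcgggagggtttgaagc
Ctsk, chr3:95499110-95499209, plus strand: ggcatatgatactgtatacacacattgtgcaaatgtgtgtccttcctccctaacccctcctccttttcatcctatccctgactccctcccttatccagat
Ctss, chr3:95526686-95526785, plus strand: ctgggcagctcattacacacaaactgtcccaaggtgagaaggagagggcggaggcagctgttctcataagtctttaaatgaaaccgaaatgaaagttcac

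The Lamp1 stretch holds 4 copies of the E-box, those of Cln3 and Mcoln1 hold 2 each, and those of Ctsd and Ctsa hold 1 each. Cln3 is the gene with the full CLEAR palindrome. The 8 genes with an E-box in the window had log2 fold changes from -0.63 to 0.14 with a median of -0.16, and none was called. The 22 genes with a promoter sequence and no E-box ranged from -1.93 to 0.45 with a median of -0.05, and 1 of them, Ctsk, was called lower. A match is a run of letters, not a measured binding site.

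Per length, the most abundant transcripts of the set in WT liver mostly encode luminal proteins, and the membrane protein gene Lamp1 is the exception among those above 100 FPKM. Ctsd, the aspartic protease cathepsin D, stood at 758 ± 137 FPKM and Psap, the precursor of the saposins that help degrade sphingolipids, at 698 ± 168.5 FPKM (SD, n = 3 each). Ctss at 387 ± 114, Lamp1 at 384 ± 18.3, Ctsb at 293 ± 37.3, Ctsz at 234 ± 23.7 and Ctsl at 139 ± 17.4 FPKM (SD, n = 3 each) were the only others above 100 FPKM. The first 4 of these 7 made up 59.1% of the summed WT FPKM of all 36. The lowest were Mcoln1, the TRPML calcium channel of the lysosome, at 5.67 ± 0.225, Cln3 at 4.21 ± 0.326 and Tfeb at 2.47 ± 0.55 FPKM (SD, n = 3 each). In this order, 27 of 35 neighbouring pairs of genes overlapped between the WT libraries, Ctsd with Psap among them, so most neighbours did not differ beyond their spread.

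**Figure D1:**
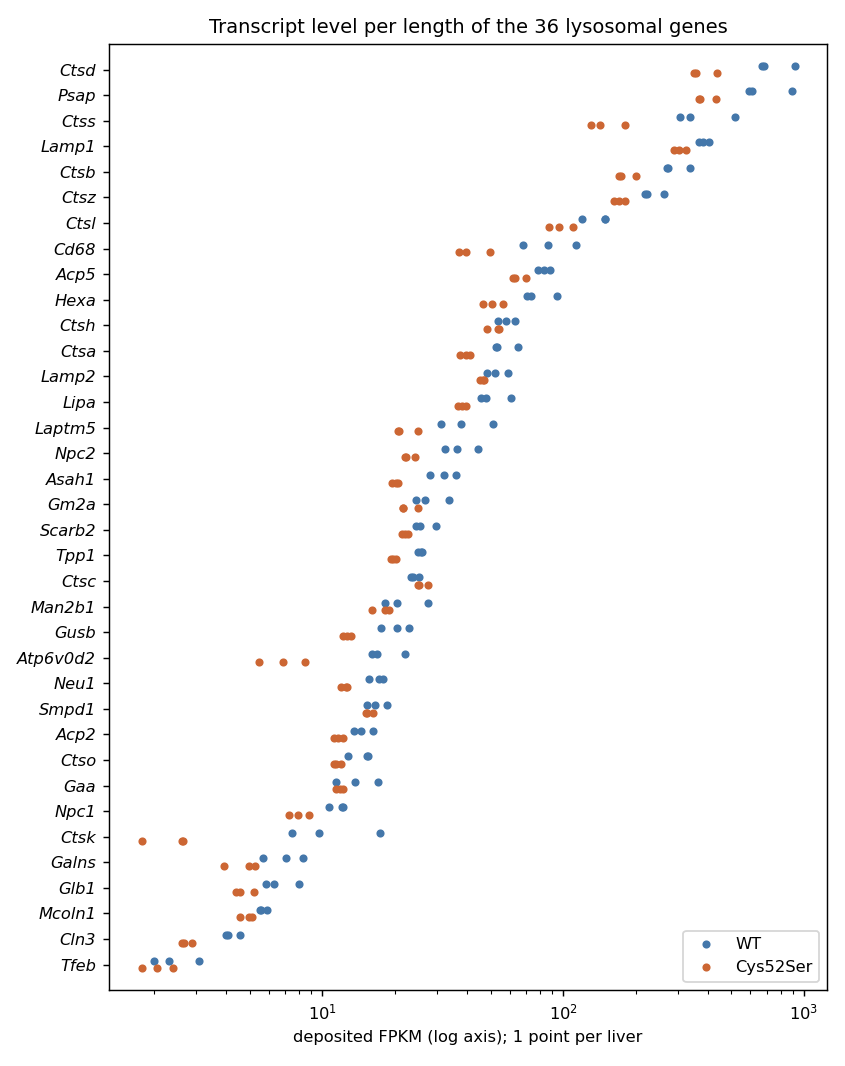
Deposited FPKM of the 36 lysosomal genes on a log axis, ordered by WT mean, with 1 point per liver (blue WT, orange Cys52Ser, n = 3 each). WT means run from 2.47 FPKM for Tfeb to 758 FPKM for Ctsd, and the points of Ctsk separate clearly, at a mean of 11.5 FPKM in WT and 2.34 FPKM in Cys52Ser.

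Between genotypes, 2 of the 36 genes fell in Cys52Ser and none rose (edgeR quasi-likelihood test, Benjamini-Hochberg adjusted over all genes tested). This is 5.56% lower, beside 2.46% of all genes tested called lower and 2.52% called higher, 4.98% in all. The 36 were chosen with earlier results of these data known, so their share is not independent of the values. Both genes that fell are best known from osteoclasts and macrophages: Ctsk, the collagen-degrading cysteine protease cathepsin K, and Atp6v0d2, a subunit of the proton pump. At an unadjusted edgeR p under 0.05, 11 of the 36 were lower and 1 was higher, beside 11.1% of all genes lower. The share of all genes higher at that threshold was not counted, so the 1 higher gene has no background beside it. DESeq2 called 7 lower and 1 higher, beside 7.21% lower and 8.04% higher of the 16343 genes to which it gave an adjusted p. The median log2 fold change of the 36 was -0.13, with 23 negative and 13 positive values, and that of all genes was 0.00. Per liver, the median log2 deviation of the 36 from their WT means was 0.08, -0.10 and 0.02 in WT. It was -0.04, -0.26 and -0.02 in Cys52Ser replicates 1, 2 and 3, so the groups overlapped. Without Cys52Ser replicate 2 the median of the 36 was -0.05 beside -0.04 for all genes, with 19 negative and 17 positive values. In 13 of the 36 every Cys52Ser library lay below every WT library, and in 1, Ctsc, above, while the shares over all genes tested were 15.2% below and 14.4% above.

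**Figure D2:**
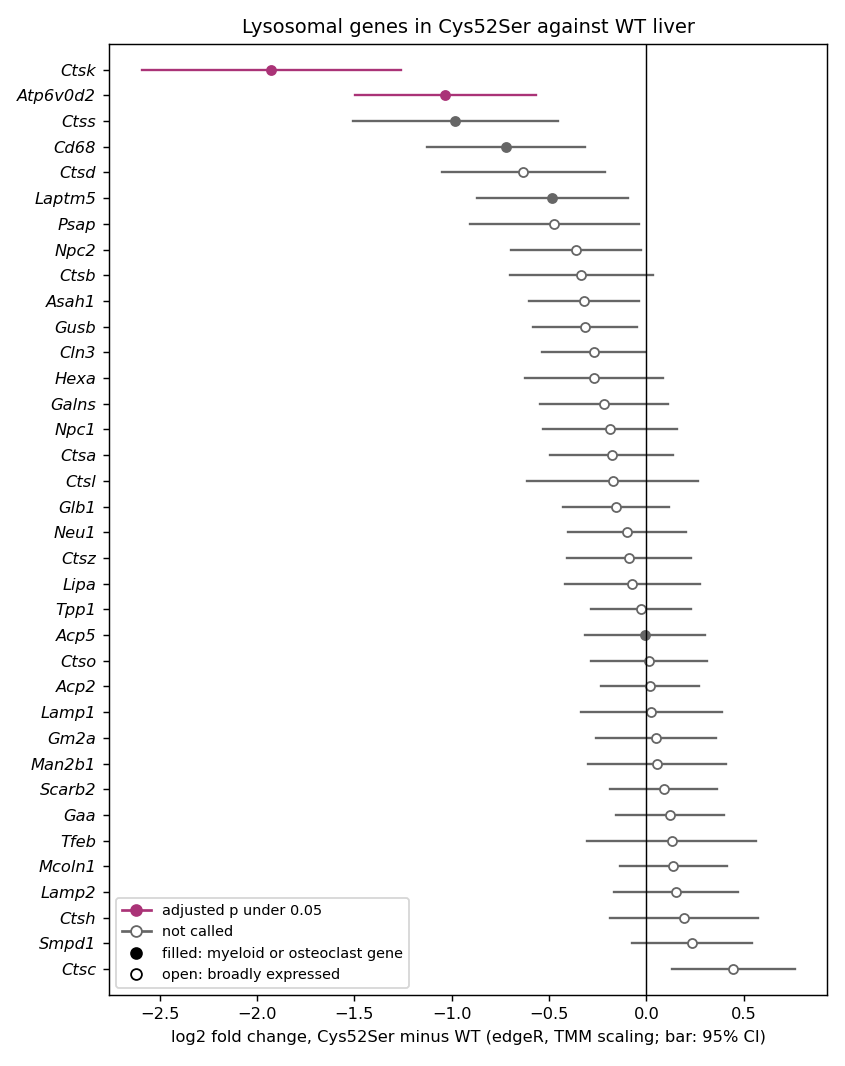
Log2 fold change, Cys52Ser minus WT, of each of the 36 genes with its 95% confidence interval (edgeR, TMM scaling, n = 3 each). Ctsk at -1.93 and Atp6v0d2 at -1.03, in purple, passed an adjusted p of 0.05, and the other 34 genes run from Ctss at -0.98 to Ctsc at 0.45.

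Of the 8 cysteine cathepsins, papain-like proteases, 1 fell and 7 did not pass. Ctsk (ENSMUSG00000028111, GRCm38 chromosome 3, 95499256 to 95509362) stood at 24.5, 14.6 and 12.4 CPM in WT replicates 1, 2 and 3, and at 5.11, 4.69 and 3.69 CPM in the Cys52Ser replicates. The groups did not overlap, and WT replicate 1 was the highest library. Ctsk was 3.81-fold lower in Cys52Ser (log2 fold change -1.93, 95% interval -2.59 to -1.26, edgeR adjusted p = 0.0223). The call was lost without WT replicate 2 (edgeR adjusted p = 0.0627), without Cys52Ser replicate 1 (0.0766) and without Cys52Ser replicate 3 (0.088), at log2 fold changes of -2.08, -2.03 and -1.81. Without WT replicate 1 it held, at -1.63 (edgeR adjusted p = 0.0349).

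Ctss encodes cathepsin S, which trims the invariant chain in antigen-presenting cells, and lies near Ctsk (chromosome 3, 95526786 to 95556403). Its level was 654, 413 and 500.3 CPM in WT and 318, 209 and 265.5 CPM in Cys52Ser. The groups did not overlap, but the log2 fold change of -0.98 (95% interval -1.51 to -0.46) missed the threshold at an edgeR adjusted p of 0.0538. A processed pseudogene overlaps Ctss on the same strand. Ctsb, a broadly expressed cathepsin, was 1888, 1634 and 1785 CPM in WT and 1565, 1236 and 1408 CPM in Cys52Ser. Its groups were also apart, at a log2 fold change of -0.33 (edgeR adjusted p = 0.263).

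Ctsc, cathepsin C, activates the granule serine proteases of leukocytes and lay on the other side of zero. It was 127, 137 and 160.3 CPM in WT and 206, 173 and 199.5 CPM in Cys52Ser, with every Cys52Ser liver above every WT liver. Its log2 fold change of 0.45 (95% interval 0.13 to 0.76) did not pass in edgeR (adjusted p = 0.103) and did in DESeq2 (adjusted p = 0.0223). In deposited FPKM the Ctsc groups overlapped, with WT at 24.2 ± 0.985 and Cys52Ser at 26.0 ± 1.28 (SD, n = 3 each). The other 4 cathepsins of this class had overlapping groups, with log2 fold changes of 0.19 for Ctsh, an aminopeptidase, -0.17 for Ctsl, an endopeptidase, -0.09 for Ctsz, a carboxypeptidase, and 0.01 for Ctso.

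The other 3 proteases did not pass. Ctsd (chromosome 7, 142375911 to 142388038) was 2002, 1569 and 1757 CPM in WT and 1321, 968 and 1147 CPM in Cys52Ser. Each Cys52Ser liver lay below each WT liver, at a log2 fold change of -0.63 (95% interval -1.05 to -0.21, edgeR adjusted p = 0.0895). Another coding gene model overlaps Ctsd on the same strand, so the assignment of its reads is uncertain. Ctsa, the protective protein that stabilises lysosomal galactosidase and sialidase, had a log2 fold change of -0.18 and Tpp1, a tripeptidyl peptidase, one of -0.03, both with overlapping groups.

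**Figure D3:**
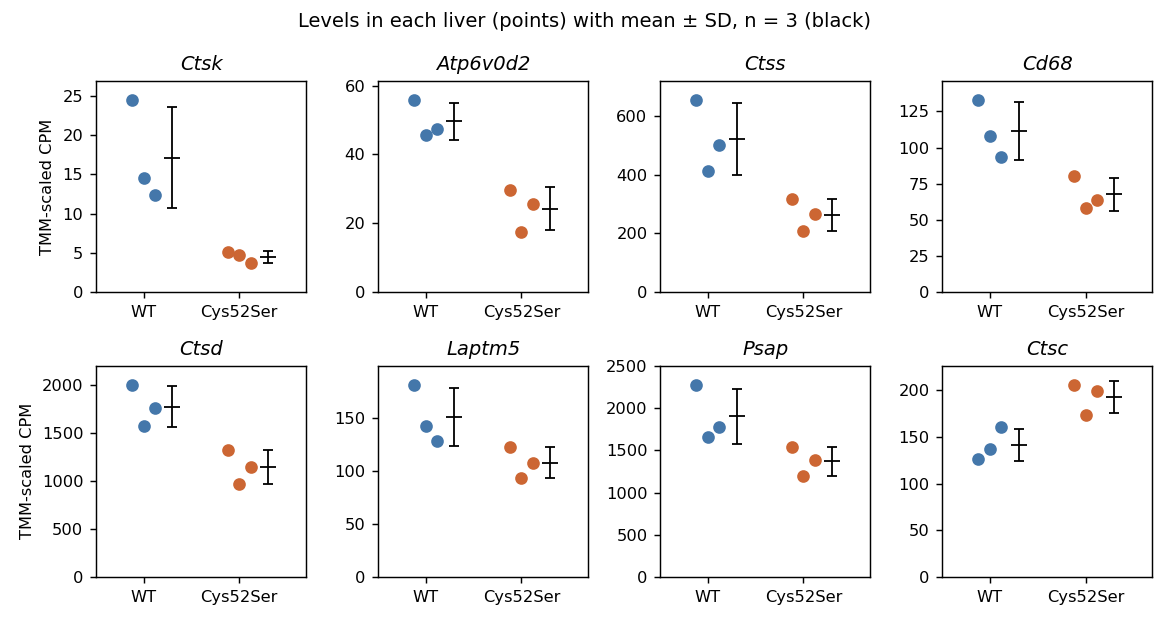
TMM-scaled CPM of 8 of the genes in each liver, with every y axis starting at 0 (blue WT, orange Cys52Ser, mean ± SD in black, n = 3 each). The groups do not overlap in any panel, Ctsc alone is higher in Cys52Ser, and of these 8 genes Ctsk and Atp6v0d2 passed the edgeR test.

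None of the 7 glycosidases and sulfatases passed, and their log2 fold changes lay between -0.32 and 0.12. Gusb, beta-glucuronidase, was 96.7, 92.4 and 87.4 CPM in WT and 74.7, 65.5 and 82.0 CPM in Cys52Ser. Its groups did not overlap, at a log2 fold change of -0.32 and an edgeR adjusted p of 0.157, the smallest of the 7. Glb1, beta-galactosidase, had groups just apart, from 18.9 to 22.4 CPM in WT and from 17.1 to 18.7 CPM in Cys52Ser. The groups overlapped for Hexa, a hexosaminidase subunit, at a log2 fold change of -0.27, for Galns, a sulfatase of keratan sulfate breakdown, at -0.22, and for the sialidase gene Neu1 at -0.10. They also overlapped for the mannosidase gene Man2b1 at 0.05 and for Gaa, which breaks down lysosomal glycogen, at 0.12.

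The 5 genes of lipid breakdown did not pass either. Psap (chromosome 10, 60277627 to 60302597) was 2275, 1658 and 1773 CPM in WT and 1534, 1196 and 1383 CPM in Cys52Ser. The groups were apart, at a log2 fold change of -0.47 (95% interval -0.90 to -0.04, edgeR adjusted p = 0.185). Asah1, acid ceramidase, was 113, 94.7 and 118 CPM in WT and 85.4, 82.3 and 93.6 CPM in Cys52Ser. Those groups lay just apart, at a log2 fold change of -0.32 and an edgeR adjusted p of 0.171, the smallest of the 5. Lipa, the acid lipase that hydrolyses cholesteryl esters and triglycerides in the lysosome, was 384, 307 and 354 CPM in WT and 334.5, 292 and 367 CPM in Cys52Ser. The Lipa groups overlapped, at a log2 fold change of -0.07 with a 95% interval from -0.42 to 0.27. Smpd1, acid sphingomyelinase, and Gm2a, the ganglioside activator protein, had log2 fold changes of 0.23 and 0.05 with overlapping groups.

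Export of cholesterol needs both Npc2, a soluble carrier, and Npc1, a membrane protein. Npc2 was 225, 174.5 and 214 CPM in WT and 171, 141 and 165.5 CPM in Cys52Ser. Its groups were apart, at a log2 fold change of -0.36 (edgeR adjusted p = 0.191). The levels of Npc1 were 128, 119.9 and 149 CPM in WT and 129, 96.8 and 122.5 CPM in Cys52Ser, and its groups overlapped (log2 fold change -0.19, edgeR adjusted p = 0.516).

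Both acid phosphatase genes had overlapping groups, at log2 fold changes of 0.02 for Acp2 and -0.01 for Acp5. Acp5, the tartrate-resistant phosphatase, shares with Ctsk its use as an osteoclast marker. It was 166, 169 and 175 CPM in WT and 165, 147.5 and 194.5 CPM in Cys52Ser, with a 95% interval of its log2 fold change from -0.31 to 0.30.

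Of the 8 membrane proteins and channels, 1 fell and 7 did not pass. Atp6v0d2 (ENSMUSG00000028238, chromosome 4, 19876841 to 19922605) was 55.8, 45.6 and 47.5 CPM in WT and 29.6, 17.4 and 25.7 CPM in Cys52Ser. The groups did not overlap, and the level was 2.05-fold lower in Cys52Ser (log2 fold change -1.03, 95% interval -1.50 to -0.57, edgeR adjusted p = 0.0376). The call was lost without WT replicate 1, 2 or 3 (edgeR adjusted p = 0.0782, 0.0789 and 0.0555) and without Cys52Ser replicate 1 or 3 (0.0766 and 0.118), at log2 fold changes from -1.20 to -0.99.

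Cd68, macrosialin, a LAMP-like protein of macrophages (chromosome 11, 69664213 to 69666153), was 133, 108 and 93.4 CPM in WT and 80.6, 58.5 and 63.8 CPM in Cys52Ser. The groups were apart, at a log2 fold change of -0.72 (95% interval -1.13 to -0.31), and the edgeR adjusted p of 0.061 missed the threshold. Laptm5, a lysosomal membrane protein of blood cells, was 181, 142 and 128.5 CPM in WT and 122, 93.4 and 107 CPM in Cys52Ser, apart at a log2 fold change of -0.48 (edgeR adjusted p = 0.139). Cln3, the gene of juvenile Batten disease, was 24.7, 23.4 and 25.1 CPM in WT and 21.6, 17.9 and 21.2 CPM in Cys52Ser, apart at -0.27 (edgeR adjusted p = 0.215). DESeq2 passed Ctss (adjusted p = 9.05e-05), Cd68 (0.00244), Ctsd (0.00204), Psap (0.0394) and Laptm5 (0.0479) as lower.

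The other membrane proteins overlapped between groups. Lamp1, a main glycoprotein of the lysosomal membrane, was 1005, 978 and 1108 CPM in WT and 1049, 912 and 1185 CPM in Cys52Ser. Its log2 fold change of 0.03 had a 95% interval from -0.34 to 0.39 and turned to -0.33 with library totals alone (edgeR adjusted p = 0.0544). Lamp2, needed for chaperone-mediated autophagy, was at 0.15, Scarb2, the receptor that carries glucocerebrosidase to lysosomes, at 0.09, and Mcoln1 at 0.14. These 3 log2 fold changes were also negative with library totals alone.

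Tfeb was 16.2, 13.1 and 12.4 CPM in WT and 17.7, 11.9 and 16.1 CPM in Cys52Ser. The groups overlapped, and the log2 fold change of 0.13 had a 95% interval from -0.30 to 0.56 (edgeR adjusted p = 0.742). TFEB is controlled largely by phosphorylation and entry into the nucleus, neither of which was measured.

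How many of the 36 were called depended on the scaling. Library totals alone gave 19 lower, beside 14.6% of all genes, with a median of -0.48 against -0.35 over all genes. With limma on log2(FPKM + 0.5), 20 were lower, beside 21.3% of all genes, at a median of -0.45 against -0.27. RLE factors gave 2 lower, beside 2.42% of all genes. Upper quartile factors gave 4 lower, beside 2.96% of all genes, with Ctss and Cd68 added to Ctsk and Atp6v0d2. In deposited FPKM, every Cys52Ser liver lay below every WT liver in 29 of the 36 and in 37.7% of all genes tested. Over 19 alternative settings, 19 of the 36 genes were negative in each, Ctsc was positive in each, and 16 had both signs.

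**Figure D4:**
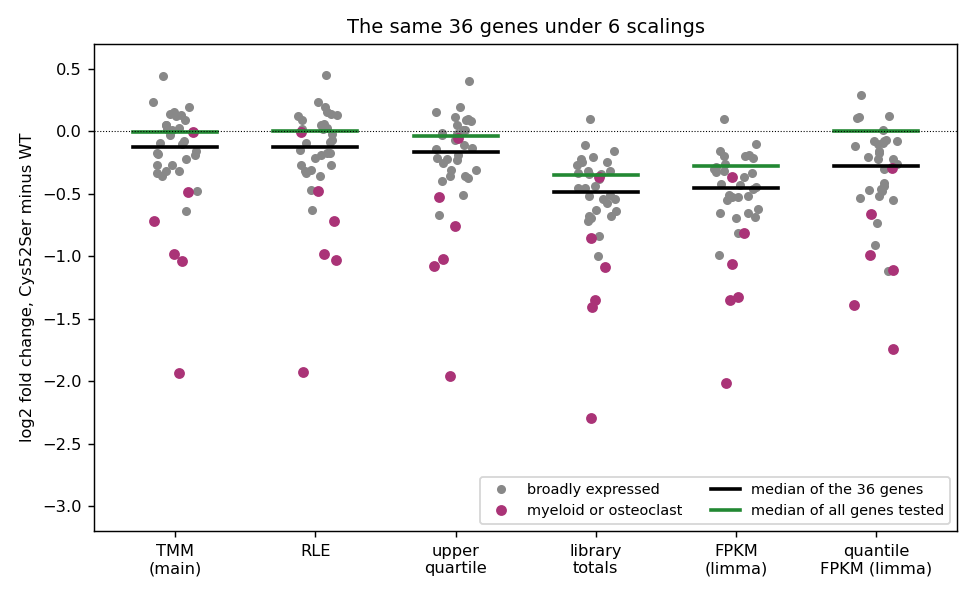
Log2 fold changes, Cys52Ser minus WT, of the 36 genes under 6 scalings, with myeloid or osteoclast genes in purple, other genes in grey, the median of the 36 in black and the median of all genes tested in green. The black line lies below the green line in each scaling, at -0.13 against 0.00 under TMM and -0.48 against -0.35 with library totals.

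By known expression, 6 of the genes are best known from myeloid cells or osteoclasts (Ctsk, Ctss, Laptm5, Cd68, Acp5 and Atp6v0d2), and the other 30 are expressed broadly. Of the 6, 2 fell, all had negative log2 fold changes with a median of -0.85, and their summed level was 892 to 1214 CPM in WT and 531 to 721 CPM in Cys52Ser. Of the 30, none was called, 17 were negative and 13 positive, and the median was -0.08. Their summed level was 10129 to 11640 CPM in WT and 8256 to 10107 CPM in Cys52Ser, ranges that lay just apart. Psap, Ctsd and Ctsb weighed most in it, at WT means of 1902, 1776 and 1769 CPM out of 11007 CPM. Their own groups lay apart, and the sum without them was not taken. Of the 30 genes, 21 overlapped between groups, 8 lay below and 1 above, beside 15.2% below and 14.4% above over all genes tested. The difference between the classes was not tested.

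Markers of several cell types moved with genotype. Of 12 general macrophage and monocyte markers 3 were lower, Ptprc, Lyz2 and Tyrobp, 11 had negative log2 fold changes, and the summed level was 1948 to 2929 CPM in WT and 1018 to 1429 CPM in Cys52Ser. Lyz2 made up most of that sum, and without it the sums were 670.2 to 780.2 CPM in WT and 499 to 621 CPM in Cys52Ser, a ratio of means of 1.27 in place of 1.94. Of 7 lipid-associated macrophage markers 4 were lower, Trem2, Gpnmb, Cd9 and Itgax, with sums of 1561 to 2658 CPM in WT and 557 to 807 CPM in Cys52Ser. Of 8 Kupffer cell markers 3 were higher, Clec4f, Cd163 and Folr2, with sums of 266 to 722 CPM in WT and 877 to 1137 CPM in Cys52Ser. The 10 hepatocyte markers, with Cps1 and Hnf4a higher, summed to 47466 to 80139 CPM in WT and 120066 to 148284 CPM in Cys52Ser, so every library carried the defining transcripts of liver. Stellate cell and fibroblast markers, 3 of 8 lower, summed to 1326 to 2154 and 849 to 918 CPM, and cholangiocyte markers, 1 of 6 lower, to 616 to 1300 and 143 to 429 CPM. Spp1, which is in both the cholangiocyte and the lipid-associated macrophage list, made up most of the cholangiocyte sum. Without Spp1 the cholangiocyte sums overlapped, at 58.0 to 139 and 27.1 to 94.5 CPM, and those of the lipid-associated macrophage list did not, at 1003 to 1496 and 442 to 574 CPM. The upper Cys52Ser end of those cholangiocyte sums was replicate 2 alone, at 94.5 CPM against 35.0 and 27.1 CPM. Krt19 made up most of it, at 61.7 CPM against 7.77 and 5.61 CPM in the other Cys52Ser livers. Cys52Ser replicate 2 was also the highest Cys52Ser liver in Des (60.1 against 10.7 and 9.76 CPM) and Spp1 (334.5 against 141 and 116 CPM). Sinusoidal endothelial markers, 2 of 6 higher, summed to 238 to 294 and 293 to 366 CPM, and 5 neutrophil markers, of which 4 were tested and none was called, to 11.4 to 14.0 and 5.42 to 16.7 CPM. No marker was at 0 in all 6 libraries. WT replicate 1 stood apart from the other WT livers, highest in the sums of macrophage (2929 CPM against 1948 and 2076), lipid-associated macrophage (2658 against 1651 and 1561), stellate cell and cholangiocyte markers, and lowest in those of Kupffer cell (266 against 722 and 664) and hepatocyte markers. The part of cell composition in the lysosomal values was not tested, and in bulk tissue fewer cells of a type and less RNA per cell cannot be told apart.

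Ratios of the 6 myeloid or osteoclast genes to single macrophage markers do not depend on library scaling. They were chosen after the values were seen and carry no test. Csf1r, the receptor for macrophage colony-stimulating factor, had a mean of 211 CPM in WT and 201 CPM in Cys52Ser (edgeR adjusted p = 0.833). Relative to Csf1r, Ctsk was 0.0648 to 0.103 in WT and 0.0176 to 0.0272 in Cys52Ser, and Atp6v0d2 was 0.223 to 0.249 in WT and 0.101 to 0.134 in Cys52Ser. Ctss, Cd68 and Laptm5 were also lower in every Cys52Ser liver on this ratio, and Acp5 overlapped. Relative to Ptprc, the CD45 gene of all leukocytes, Ctsk was 0.166 to 0.312 in WT and 0.0741 to 0.101 in Cys52Ser. Atp6v0d2 and Ctss lay apart on that ratio too, Cd68 and Laptm5 overlapped, and Acp5 was higher in Cys52Ser, at 2.12 to 2.35 in WT and 2.82 to 3.9 in Cys52Ser. Relative to the macrophage marker Adgre1, of the 6 genes only Ctsk lay apart, at 0.13 to 0.306 in WT and 0.0399 to 0.0748 in Cys52Ser. Of the 12 macrophage markers only Csf1r, Ptprc and Adgre1 were used, at log2 fold changes of -0.07, -0.54 and -0.20. All 12 ran from -1.34 for Lyz2 to 0.13 for Mertk, with a median of -0.57. Lyz2 thus lay farther below zero than Atp6v0d2 (-1.03), Ctss (-0.98), Cd68 (-0.72) and Laptm5 (-0.48). By these group estimates, those genes would not be lower in Cys52Ser relative to Lyz2. Ratios to the others, Lyz2 among them, were not taken. Nor were ratios to markers of other cell types, such as the stellate cell and fibroblast markers, whose sums were also lower in Cys52Ser. The ratios given hold only for the markers named.

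The rest of the lysosomal system was read from 6 lists with 118 genes in the table, 113 of them tested. Of these, 6 fell and 1 rose, which is 5.31% lower, beside 2.46% of all genes lower and 2.52% higher. Their median log2 fold change was -0.12. The lists were chosen with earlier results of these data known, so their share is not independent of the values. Among the 17 MiT/TFE factors and nutrient signalling genes, Rragd alone passed. It encodes RagD, a small GTPase that links nutrients to mTOR at the lysosomal surface and is itself a known target of the MiT/TFE factors. Rragd was 29.3, 25.2 and 19.3 CPM in WT and 5.91, 4.38 and 5.63 CPM in Cys52Ser. Every Cys52Ser liver stood far below every WT liver, 4.63-fold lower (log2 fold change -2.21, 95% interval -2.68 to -1.74, edgeR adjusted p = 0.0107). Its call held in all 19 alternative settings. A pseudogene overlaps Rragd on the opposite strand.

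Among 27 tested membrane proteins and transporters, 3 fell and 1 rose. Cd63, a tetraspanin of late endosomes and lysosomes, was 136, 134 and 88.7 CPM in WT and 45.96, 57.9 and 39.7 CPM in Cys52Ser. It was 2.5-fold lower without overlap (log2 fold change -1.32, edgeR adjusted p = 0.0243). The Cd63 call was lost without WT replicate 1 or 2 (edgeR adjusted p = 0.0696 and 0.0831) and without Cys52Ser replicate 1 or 3 (0.0932 and 0.0934).

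The related cation channel genes Tpcn1 and Tpcn2 lay on opposite sides of zero. Tpcn1 was 37.9, 29.9 and 29.7 CPM in WT and 59.0, 48.8 and 59.3 CPM in Cys52Ser, 1.71-fold higher (edgeR adjusted p = 0.0304). Tpcn2 was 19.98, 15.9 and 16.3 CPM in WT and 11.6, 10.6 and 8.75 CPM in Cys52Ser, 1.68-fold lower (edgeR adjusted p = 0.0466). In neither did the groups overlap. The Tpcn1 call was lost under scaling by library totals (edgeR adjusted p = 0.111 at a log2 fold change of 0.41) and in limma on log2(FPKM + 0.5) (adjusted p = 0.0982 at 0.39). In edgeR it was also lost without WT replicate 2 or 3 (adjusted p = 0.0996 and 0.0647) and without Cys52Ser replicate 1 or 3 (0.105 and 0.113). Tmem175, a lysosomal ion channel, was 22.2, 20.1 and 26.5 CPM in WT and 14.9, 11.5 and 14.9 CPM in Cys52Ser, 1.66-fold lower (edgeR adjusted p = 0.0467). Other gene models overlap Tpcn1 and Tpcn2 on the same strand and Tmem175 on the opposite strand, so these 3 values are uncertain.

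Of 35 other hydrolases and activators, 1 fell. Galc, the galactosylceramidase deficient in Krabbe disease, was 23.0, 20.01 and 21.6 CPM in WT and 15.1, 13.7 and 14.2 CPM in Cys52Ser (log2 fold change -0.59, edgeR adjusted p = 0.0362). An antisense gene overlaps Galc, so its value is uncertain too. The calls of Galc, Tpcn2 and Tmem175 were each lost whichever of the 6 libraries was left out, with edgeR adjusted p from 0.053 to 0.131, from 0.0712 to 0.144 and from 0.0631 to 0.126. Of 4 tested cystatins, Cstb, an inhibitor of cysteine cathepsins, was 93.2, 92.0 and 101 CPM in WT and 61.6, 51.2 and 55.2 CPM in Cys52Ser. Cstb was 1.7-fold lower without overlap (log2 fold change -0.77, edgeR adjusted p = 0.02), and its call was lost without WT replicate 2 (0.0561) and without Cys52Ser replicate 1 or 3 (0.0657 and 0.0846).

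None of 17 other proton pump subunits passed, with 12 negative and 5 positive log2 fold changes, and their difference from Atp6v0d2 was not tested. The smallest p among them belonged to Tcirg1, a subunit enriched in osteoclasts and macrophages, at -0.53 (edgeR adjusted p = 0.0607). None of 13 genes of mannose phosphate tagging and enzyme sorting passed, with Sort1, sortilin, at -0.69 (edgeR adjusted p = 0.11).

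**Figure D5:**
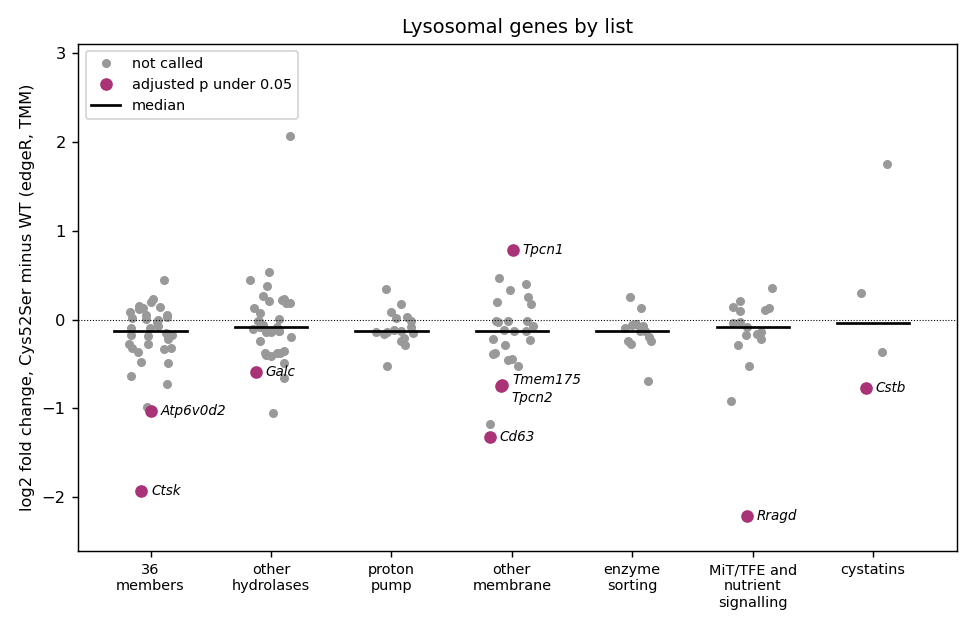
Log2 fold changes, Cys52Ser minus WT, of the 36 genes and of the 113 other tested lysosomal genes by list, with list medians as black lines and genes at an adjusted p under 0.05 in purple (edgeR, n = 3 each). Of the called genes Rragd at -2.21 lies lowest and Tpcn1 at 0.78 is the only one above zero, and the list medians lie between -0.13 and -0.03.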

How the data were processed

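For each gene and library the authors' deposited table holds an estimated count, in whole numbers and so tested without rounding, and an FPKM value, per the file headers. Tools listed in the submitters' processing notes, with no role stated, are HISAT2 2.0.4 and StringTie 1.3.4d, beside cutadapt 1.9, UMI-tools, edgeR and DESeq2; the build listed is mm9. The coordinates of 35 of the 36 genes are those of GENCODE M21, so positions are given as GRCm38. Libraries were poly(A)-selected and strand-marked, per the labels' protocols. The sources used here do not say whether counting used strand: 13 of the 36 genes are overlapped on the opposite strand and 6 on the same strand, none of them Ctsk or Atp6v0d2.

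Counts were tested with edgeR 4.0.16 in R 4.3.3, with filterByExpr at a minimum count of 10, TMM, a robust quasi-likelihood fit on genotype and Benjamini-Hochberg adjustment over 18648 genes at 0.05. DESeq2 1.42.0 and limma 3.58.1 on log2(FPKM + pseudocount), for genes at 0.5 FPKM in 3 libraries, were alternatives. Each library is a separate mouse by the design text, and every pair of libraries differed by more than sampling noise. The members and lists were chosen with earlier results of these data known. Named genes are the 36 members and, of each other list, up to 6 called genes or else the smallest p. A planned comparison of protein sequences was not run.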

Additional observations from a re-analysis of the deposited data

How the results depend on the processing

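The count of lower members (2) was 4 with upper quartile factors, 4 at a mean CPM of at least 1, 4 with the replicate block, 7 in DESeq2 and 19 with library totals alone. Of all genes, 2.96%, 3.96%, 1.62%, 7.21% and 14.6% were lower in these settings, in that order. In limma the count of lower members was 20, 21 and 20 at pseudocounts of 0.5, 0.1 and 1, 10 without the FPKM filter and 10 after quantile normalization. The shares of all genes there were 21.3%, 21.3%, 21.1%, 3.81% and 4.73%. Leaving out 1 library gave 0 to 2 lower members, beside 0.0363% to 2.12% of all genes. Tpcn1 was called in none of the 4 limma fits without quantile normalization. DESeq2 called 1 member higher. Over all genes, lower and higher calls (459 and 469) were 2724 and 293 with library totals alone, 1179 and 1314 in DESeq2, and 1091 and 174 in limma without the filter. Lower calls were 303 with the replicate block, 2974, 2978 and 2956 in limma at the 3 pseudocounts and 661 with quantiles. Leaving out 1 library gave 7 to 412 lower and 21 to 378 higher, from 2 mice in a group. The share of calls that were higher went from 50.5% to 9.71% with library totals alone. Other lysosomal genes (6 lower, 1 higher) gave 56 and 0 with library totals alone, 12 and 4 in DESeq2, 58 and 0 in limma at each pseudocount, 24 and 0 without the filter, and 1 to 5 lower and 0 to 1 higher with 1 library left out. The median of the 36 (-0.13) was -0.48 with library totals alone, -0.45, -0.47 and -0.43 in limma, -0.45 without the filter, -0.28 with quantiles, and -0.21 to -0.05 with 1 library left out. Lamp1 reversed to -0.33 at a pseudocount of 0.1 (limma adjusted p = 0.0499) and to -0.47 with quantiles (limma adjusted p = 0.0403). The cause of these shifts was not tested. Same-numbered replicates deviated from their group means with r of -0.04, 0.14 and 0.02, which gave no clear sign that the numbers pair the mice. The 0.14 of the replicates numbered 2 was the largest r of any pair, while WT replicate 1 correlated best with Cys52Ser replicate 3. Deviations from means of so few libraries cannot exclude a pairing. With the replicate block Ctss (edgeR adjusted p = 0.0315) and Cd68 (0.0382) were called beside Ctsk and Atp6v0d2, and the calls of Galc (0.0548) and Tpcn2 (0.0517) were lost.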
